A study of Mus musculus with 11 samples.

Results

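The comparison described here set 3 libraries of Treg cells from visceral adipose tissue (VAT) against 3 libraries from pooled spleen and lymph nodes (Spl/LN), all from mice immunized with the peptide Fat1562. These are 6 of the 11 libraries of the series and were chosen by their labels. With every library scaled to the same total, 12178 of 52997 genes had a mean count above 10 in at least 1 of the 2 tissues and were tested. Among the genes nearest to that limit were Trim6 inside it, with a larger group mean of 10.02, and Fbln1 outside it, with 9.99.

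All 6 libraries came from male mice listed as C57BL/6 and 15 weeks old. The sorted cells had been transferred from male vTreg53 Tg+ donors that also carried the Foxp3-GFP knock-in. vTreg53 is a transgenic T cell receptor (TCR) copied from a single VAT Treg clone, so the data describe 1 specificity only. Donor Treg cells were taken from spleen and lymph nodes and given to B6.CD45.1 males, for which no depletion of their own T cells is described, and the recipients were primed 6 weeks later with Fat1562 in complete Freund's adjuvant and boosted 1 week after that in incomplete adjuvant. Fat1562 is a surrogate agonist of the vTreg53 TCR. Recipients in the control groups (3 Spl/LN and 2 VAT libraries) carried the same transferred cells and received no Fat1562. The labels of the controls name PBS and call them unimmunized, whereas the study's text names adjuvant alone. If the labels hold, peptide and adjuvant cannot be told apart wherever Fat1562 mice are set against control mice. Each library was made with Smart-seq2, which copies polyadenylated RNA into cDNA and amplifies it, from 1000 cells sorted on CD45.2 and the clonotype. The study's methods call the libraries biological replicates. Nothing in the sources ties a library to 1 mouse or to a pool, so the spread between libraries may in part be technical.

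The 6 libraries held 4989677 to 6570057 counts. Trbv2, the Vβ segment of the clonotype, took 96.8% to 98.3% of all Trbv counts and the Trav14 family took 95.8% to 97.3% of all Trav counts, and in both tissues the cells carried Foxp3, the defining transcription factor of Treg cells. The first principal component held 71.4% of the variance and separated the tissues. Markers of adipocytes summed to 11.2 to 23.0 counts per 1000000 (CPM) in Spl/LN and 14.2 to 18.1 in VAT, with 7 of 10 at no more than 3 counts in each library. Macrophage markers summed to 3.67 to 16.3 CPM in Spl/LN and 5.87 to 6.81 in VAT. Epididymal VAT was digested with collagenase, and no digestion is described for Spl/LN, so tissue and handling cannot be told apart in any comparison below.

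Treg cells of VAT are known for a transcriptional state shaped by PPARγ, for the IL-33 receptor ST2 and for products such as IL-10 and amphiregulin, whereas Treg cells of lymphoid organs keep programs of recirculation. Immediate early genes, among them the AP-1 and NR4A families, are transcribed within minutes of a stimulus from factors already present in the cell, CREB bound to the cyclic AMP response element being one of them. NF-κB turns on its own inhibitors, so that IκBα and A20 rise as part of a negative feedback. RNA-binding proteins such as tristetraprolin and the Regnases then shorten the life of the same transcripts.

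A gene was called when edgeR's quasi-likelihood test, with Benjamini-Hochberg adjustment over the 12178 genes, gave an adjusted p under 0.05. This was met by 1997 genes (16.4%), 1108 of them (9.10%) higher and 889 (7.30%) lower in VAT, whereas an unadjusted p under 0.05 was met by 3533 genes (29.0%). The higher genes moved further, with a median of 1.97-fold against 1.64-fold for the lower ones, and at least 2-fold changes were found for 539 higher and 276 lower genes. In 4600 genes (37.8%) the 3 VAT libraries did not overlap the 3 Spl/LN libraries. Values below are normalized counts, in which TMM factors correct the library sizes and every library is expressed at the mean size, with the SD over 3 libraries, and log2 fold changes of VAT over Spl/LN carry their SE. In bulk libraries, fewer cells of a kind and less RNA per cell cannot be told apart.

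**Figure D1:**
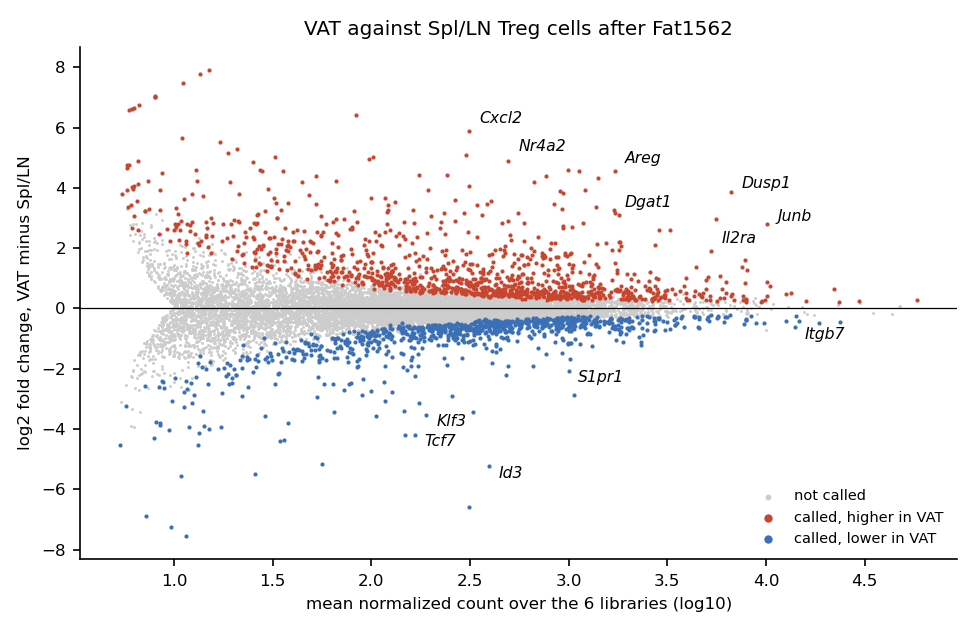
The log2 fold change of VAT over Spl/LN after Fat1562 (y axis) is plotted against the log10 of the mean normalized count over the 6 libraries (x axis) for each of the 12178 tested genes. Called genes are coloured by direction, 1108 higher and 889 lower, and the fitted changes of genes at 0 in a whole group depend on the prior count.

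The AP-1 and NR4A families stood among the genes with the largest rise in VAT. Of 12 tested AP-1 and ATF genes, 8 were called higher and 0 lower, where 9.10% of all tested genes were called higher and 7.30% lower. In control mice, 9 of these 12 were called higher in VAT and 0 lower, with a median log2 fold change of 2.63. There, 9.30% of all tested genes were called higher and 7.32% lower. After Fat1562, the median of the 12 was 2.26, against -0.005 over all tested genes. Junb (chr8:84974484-84978718), the most changed of them in normalized counts, encodes a JUN partner of FOS proteins. Its 3 Spl/LN libraries held 2502, 2639 and 2577 normalized counts, and its VAT libraries held 18535, 18436 and 16197. The tissues lay far apart, with a 6.89-fold higher mean in VAT (log2 2.78 ± 0.08, adjusted p = 5.86e-14). Fos, which encodes the partner itself, gave 116, 71.1 and 51.8 in Spl/LN and 2106, 1607 and 2038 in VAT, with no overlap and a log2 fold change of 4.60 ± 0.25 (adjusted p = 4.46e-10). Fosl2, a FOS relative with slower kinetics, went from 123, 99.8 and 59.0 to 2405, 2186 and 1914, a 23.3-fold difference (adjusted p = 3.96e-11). Atf3, a stress-induced member, was at 0 in all 3 Spl/LN libraries and had 45, 14 and 28 raw counts in VAT, at least 10.7-fold higher against a floor of 3 counts per library. It passed the filter only through VAT. Atf4, which drives amino acid supply genes, rose less, from 677 ± 61.1 to 1107 ± 46.2 (adjusted p = 1.69e-04).

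All 3 NR4A receptors, orphan nuclear receptors that follow TCR signal, rose in VAT. Nr4a1 had 1140.2, 1502 and 1152 normalized counts in Spl/LN and 11445, 9515 and 8725 in VAT. No library of one tissue reached the other (log2 fold change 2.97 ± 0.17, adjusted p = 9.82e-10). Nr4a2 rose 30.0-fold, from 31.7 ± 9.57 to 959 ± 113 (adjusted p = 2.52e-09), and Nr4a3 rose 14.2-fold (adjusted p = 1.00e-09). Egr1 and Egr2, which answer the same receptor through the MAP kinase pathway, went the other way. Egr1 had 926, 911 and 736 in Spl/LN and 414, 339 and 538 in VAT, and Egr2 had 272, 223 and 319 against 83.9, 65.7 and 66.2. Both were lower in every VAT library, Egr1 with a log2 fold change of -0.99 ± 0.18 (adjusted p = 9.37e-04) and Egr2 with -1.92 ± 0.23 (adjusted p = 9.48e-06). Control mice gave 10 higher and 1 lower calls among the whole list of 16 NR4A, EGR and other immediate early genes, with a median of 1.56. After Fat1562, 9 of the 16 were called higher and 2 lower, with a median of 1.19. Myc, the growth regulator, was among those higher (280.3 ± 17.6 in Spl/LN and 1049 ± 225 in VAT, adjusted p = 2.76e-08), as was Gadd45b (9.60-fold, adjusted p = 6.51e-11), a stress-induced regulator of p38 and JNK signaling.

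Phosphatases that switch off the MAP kinases rose with them. In control mice, 6 of the 11 tested members of the DUSP and Sprouty list were called higher and 1 lower (median log2 fold change 1.48). After Fat1562, 7 were called higher and 0 lower (median 1.39). Dusp1, a nuclear phosphatase of p38 and JNK, had 976, 884 and 748 normalized counts in Spl/LN and 14832, 11883 and 10780.4 in VAT. The lowest VAT library was above every Spl/LN library, and the mean rose 14.4-fold (log2 3.85 ± 0.14, adjusted p = 3.45e-12). Dusp4 rose 7.16-fold (adjusted p = 3.56e-10), Dusp14 9.07-fold (adjusted p = 1.82e-07) and Dusp10 2.62-fold (adjusted p = 5.47e-05). Ppp1r15a, which encodes the GADD34 subunit that restores translation after stress, had 143, 118 and 139 in Spl/LN and 3005, 2547 and 2531 in VAT (log2 fold change 4.33 ± 0.16, adjusted p = 3.45e-12). Every VAT library lay above every Spl/LN library for each of these genes. Exons of other genes overlap Junb, Dusp1 and Ppp1r15a on the opposite strand, and whether the counting used strand is not given in the sources used here.

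**Figure D2:**
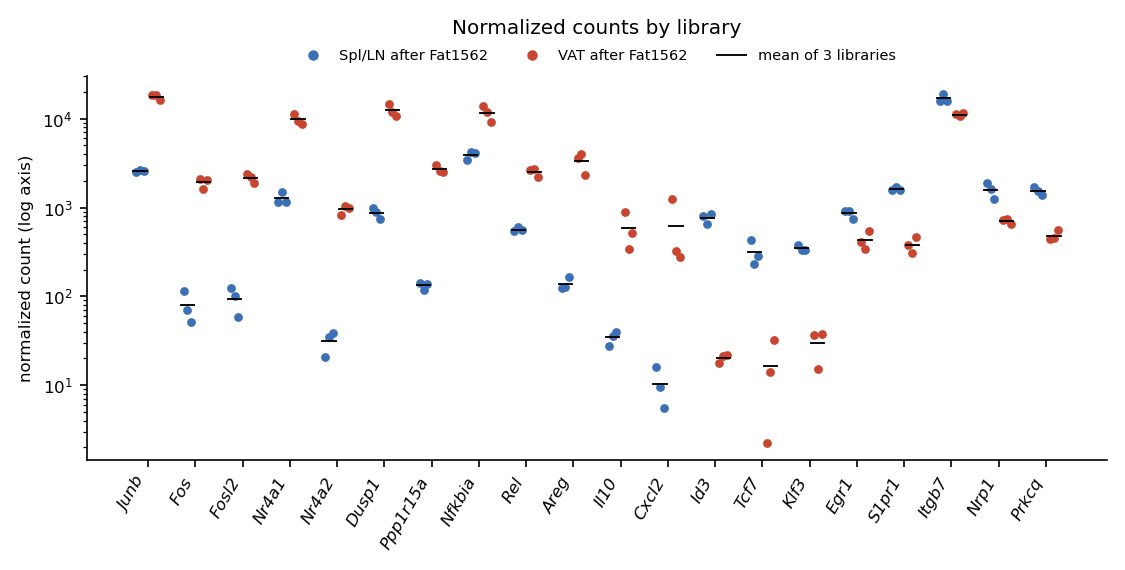
Normalized counts (log axis) of 20 genes in each of the 3 Spl/LN and 3 VAT libraries after Fat1562, with bars at the mean of 3. The tissues do not overlap for Junb, Fos, Nr4a1, Dusp1 or Areg, which are higher in VAT, or for Id3, Tcf7, Klf3, Egr1 and S1pr1, which are lower.

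Promoter windows are shown for the 3 genes among those rising most whose window holds the cyclic AMP response element. They are the 250 bases before the RefSeq start site (GRCm38.p6), written 5′ to 3′ on the gene's strand, with the element TGACGTCA in capitals.
Dusp1, chr17:26508473-26508722, minus strand: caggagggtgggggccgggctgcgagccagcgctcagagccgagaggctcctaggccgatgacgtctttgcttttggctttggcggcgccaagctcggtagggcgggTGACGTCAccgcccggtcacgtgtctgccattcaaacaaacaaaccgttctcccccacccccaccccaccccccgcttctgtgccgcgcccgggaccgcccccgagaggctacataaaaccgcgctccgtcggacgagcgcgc
Ppp1r15a, chr7:45526269-45526518, minus strand: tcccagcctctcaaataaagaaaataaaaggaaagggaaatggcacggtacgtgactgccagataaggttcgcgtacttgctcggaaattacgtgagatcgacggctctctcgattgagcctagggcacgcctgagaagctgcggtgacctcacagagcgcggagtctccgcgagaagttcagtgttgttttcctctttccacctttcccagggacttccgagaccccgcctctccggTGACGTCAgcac
Areg, chr5:91139349-91139598, plus strand: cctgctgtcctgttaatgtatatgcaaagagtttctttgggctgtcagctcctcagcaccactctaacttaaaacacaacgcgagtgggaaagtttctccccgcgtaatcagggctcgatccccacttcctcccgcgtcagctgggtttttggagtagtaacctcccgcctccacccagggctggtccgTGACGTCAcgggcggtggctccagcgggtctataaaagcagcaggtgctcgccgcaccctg
The element ended 135 bases before the start site in Dusp1, 4 in Ppp1r15a and 53 in Areg. Searched on both strands, it lay in 1.55% of all 32851 promoter windows, in 3.14% of the windows of tested genes, in 3.81% of those of genes called higher and in 1.97% of those of genes called lower. Windows existed for 8848 of the 12178 tested genes, and a match describes letters only. The AP-1 site TGANTCA, searched likewise, lay in 5.04% of windows of tested genes, 8.36% of windows of genes called higher and 6.96% of those called lower, and in none of the 13 windows of the AP-1 and ATF list.

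Several subunits and inhibitors of NF-κB were higher in VAT. Of 17 tested genes, 9 were called higher and 1 lower, with a median log2 fold change of 0.44, and the single lower call, Rela, was lost without Spl/LN replicate 1 (adjusted p = 0.109), Spl/LN replicate 2 (0.058), VAT replicate 1 (0.0998) or VAT replicate 2 (0.0519), which left 0. In control mice, 9 of the 17 were called higher and 0 lower (median 0.79). After Fat1562, Nfkbia, which encodes IκBα, had 3428, 4190.3 and 4068 normalized counts in Spl/LN and 14079.5, 11939.9 and 9211 in VAT. The tissues did not overlap, and the log2 fold change was 1.59 ± 0.12 (adjusted p = 5.44e-08). Tnfaip3, the gene of the ubiquitin-editing enzyme A20, had 787, 898 and 745 against 5902, 4699.8 and 4137, a 6.07-fold rise (adjusted p = 1.13e-10). Nfkbiz, encoding the nuclear cofactor IκBζ, rose 4.64-fold (adjusted p = 2.13e-08) and Nfkbid, encoding IκBNS, rose 2.84-fold (adjusted p = 1.71e-07). Among the subunits, Rel, which Treg cells need for their development, had 539, 599 and 559 in Spl/LN and 2620.0, 2748 and 2226 in VAT (log2 fold change 2.16 ± 0.12, adjusted p = 4.54e-10). Rel was higher in all VAT libraries, whereas Rela, the p65 subunit, had 1046 ± 63.4 in Spl/LN and 832 ± 40.5 in VAT (adjusted p = 0.0244).

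Of the 13 genes of this list with a promoter window, 8 held a match to the consensus κB site. They were Nfkb2, Nfkbia, Nfkbid, Rel and Tnfaip3, which were called higher, and Cyld, Nfkbie and Tnip1, which were not called. The share was 7.25% over all windows, 10.4% over tested genes, 12.8% over genes called higher and 11.8% over genes called lower. Windows of 2 members and of Cxcl2, a chemokine described next, are given with the κB match in capitals.
Nfkbia, chr12:55492648-55492897, minus strand: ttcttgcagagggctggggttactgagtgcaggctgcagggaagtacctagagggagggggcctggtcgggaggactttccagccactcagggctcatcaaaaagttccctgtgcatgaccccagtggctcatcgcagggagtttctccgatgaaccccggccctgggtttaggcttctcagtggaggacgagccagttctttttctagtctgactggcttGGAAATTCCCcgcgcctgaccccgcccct
Rel, chr11:23770970-23771219, minus strand: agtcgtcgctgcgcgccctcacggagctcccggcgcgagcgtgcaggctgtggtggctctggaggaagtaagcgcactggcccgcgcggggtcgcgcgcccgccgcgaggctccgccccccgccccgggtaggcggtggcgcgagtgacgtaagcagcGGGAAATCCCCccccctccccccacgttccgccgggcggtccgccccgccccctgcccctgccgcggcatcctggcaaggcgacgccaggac
Cxcl2, chr5:90903649-90903898, plus strand: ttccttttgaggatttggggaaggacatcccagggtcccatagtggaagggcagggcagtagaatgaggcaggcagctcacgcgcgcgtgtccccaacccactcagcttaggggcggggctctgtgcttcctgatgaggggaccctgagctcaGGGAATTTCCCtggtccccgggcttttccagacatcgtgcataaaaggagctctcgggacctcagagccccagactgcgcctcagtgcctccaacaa
The match ended 19 bases before the start site in Nfkbia. In Rel and in Cxcl2 the capitals cover 2 overlapping matches, the nearer ending 81 and 86 bases before it.

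Secreted ligands were among the widest differences and were uneven between VAT libraries. Of 20 listed cytokine and chemokine genes, 8 were under the filter, and Ccl3 and Cxcl1 were among those that passed it only through VAT. The counts and medians of this list are thus in part set by the filter. Of the 12 tested, 7 were called higher and 0 lower, with a median log2 fold change of 2.90. With genes at 0 in Spl/LN set to their bound, the median was 2.41. Without VAT replicate 1, 3 were called. Cxcl2, a neutrophil chemoattractant, had 16.1, 9.55 and 5.58 normalized counts in Spl/LN and 1241, 328 and 281 in VAT. VAT replicate 1 was far above the other VAT libraries, and all 3 were above Spl/LN (59.5-fold, adjusted p = 1.68e-06). Ccl3, a ligand of CCR1, had 3, 1 and 2 raw counts in Spl/LN and 170, 133 and 192 in VAT, a ratio of 89.8 with a 95% counting interval of 41.0 to 246. Ccl4, its relative, had 0.948, 45.6 and 16.7 in Spl/LN and 278, 264 and 123 in VAT (adjusted p = 0.00168), a call lost with DESeq2 (adjusted p = 0.0744). Cxcl10, a ligand of CXCR3, did not pass the test (90.2 ± 37.0 in Spl/LN and 62.3 ± 27.7 in VAT, adjusted p = 0.39). Cxcl1 was at 0 in every Spl/LN library and had 44, 14 and 4 raw counts in VAT, at least 7.96-fold higher.

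Factors that degrade or silence mRNA also rose. In control mice, 7 of the 12 tested genes of the mRNA decay list were called higher and 1 lower (median log2 fold change 0.74). After Fat1562, 8 were called higher and 0 lower (median 0.78). Zfp36, encoding tristetraprolin, had 819, 963 and 778 normalized counts in Spl/LN and 2246, 1656 and 1633 in VAT (adjusted p = 4.87e-06). Btg2, an adaptor of the deadenylase complex, had 944, 725 and 915 against 1579, 1594 and 1615 (adjusted p = 5.07e-05). Zc3h12a and Zc3h12d encode Regnase-1 and Regnase-4. They rose 2.23-fold (adjusted p = 4.49e-04) and 1.67-fold (adjusted p = 6.39e-05). No VAT library of these 4 genes fell within the Spl/LN range.

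Heat shock genes, which respond to handling as well as to stress in the tissue, moved with these groups. In control mice, 6 of 16 were called higher and 0 lower (median log2 fold change 0.44). After Fat1562 the calls were likewise 6 higher and 0 lower (median 0.42). Only 2 were called without Spl/LN replicate 2, without Spl/LN replicate 3 or without VAT replicate 1. Hspa1a, an inducible HSP70 gene, had 78.7, 39.3 and 3.99 normalized counts in Spl/LN and 658, 129 and 77.0 in VAT. Replicate 1 was the highest library in each tissue, and the tissues overlapped (log2 fold change 2.84 ± 0.76, adjusted p = 0.0146). The Hspa1a call was lost with DESeq2 (adjusted p = 0.0996), without Spl/LN replicate 2 (adjusted p = 0.0578), without Spl/LN replicate 3 (adjusted p = 0.0523) and without VAT replicate 1 (adjusted p = 0.273), and 68.8% of its 38-base stretches also lie in other annotated genes. Whether handling has a part in the immediate early, NF-κB and heat shock differences was not tested.

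Suppressive products of Treg cells rose in part. Of 13 tested genes, 6 were called higher and 0 lower, with a median log2 fold change of 0.43. Areg, encoding the tissue repair factor amphiregulin, had 125, 128 and 164 normalized counts in Spl/LN and 3649.7, 3973 and 2300.4 in VAT. All VAT libraries lay above all Spl/LN libraries, by 23.6-fold in the mean (log2 4.56 ± 0.19, adjusted p = 1.71e-11). Il10, the anti-inflammatory cytokine, had 27.5, 36.1 and 39.9 in Spl/LN and 902, 338 and 523 in VAT. It too did not overlap, and the highest VAT value was that of replicate 1 (16.9-fold, adjusted p = 3.06e-08). Penk, the enkephalin precursor, rose 3.82-fold (adjusted p = 1.03e-04) and Fgl2, a secreted fibrinogen-like protein, rose 2.22-fold (adjusted p = 1.65e-07). Entpd1 and Nt5e encode CD39 and CD73, which turn ATP into adenosine in sequence. Entpd1 had 1066 ± 27.7 in Spl/LN and 1433 ± 46.5 in VAT (adjusted p = 0.00236), while Nt5e had 1607 ± 443 and 1626 ± 161 (adjusted p = 0.959). Prf1, the pore-forming protein of cytotoxic cells, had 188, 172 and 149.9 and 421, 328 and 243 (adjusted p = 0.014), a call lost without Spl/LN replicate 3 (adjusted p = 0.0629) and without VAT replicate 1 (adjusted p = 0.096). Markers of CD8 T and NK cells summed to 67.7 to 95.2 CPM in Spl/LN and 156 to 203 in VAT. Of these 8 markers, Nkg7, a granule protein that Treg cells can also express, was called higher and Klrb1c was called lower. Cd8b1 was present in all 6 libraries, with 86, 62 and 152 raw counts in Spl/LN and 103, 90 and 150 in VAT, and was not called. Ncr1 was at 0 in all 6 libraries and Cd8a was at 0 in all but 1. The part of these markers in the Prf1 difference was not tested.

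Genes of Treg identity split by direction. Of 19 tested genes, 8 were called higher and 6 lower (median log2 fold change 0.04), with 5 higher under quantile normalization and 3 lower without Spl/LN replicate 3 or without VAT replicate 1. Il2ra, encoding the high-affinity chain of the IL-2 receptor CD25, had 2162, 2338 and 2128 normalized counts in Spl/LN and 11256, 7546 and 6292 in VAT (3.79-fold, adjusted p = 4.96e-08). Foxp3 (chrX:7573644-7595245) rose from 7061 ± 310.3 to 8768 ± 500.1 (adjusted p = 0.005), which did not pass after quantile normalization (adjusted p = 0.0697), and 25.2% of its 38-base stretches also lie in other annotated genes. Ctla4, the checkpoint receptor, rose 1.83-fold (adjusted p = 1.94e-06). Lrrc32, encoding the latent TGF-β docking protein GARP, had 339, 278 and 347 and 1247, 1159 and 1016 (3.54-fold, adjusted p = 7.71e-08). Itgb8, the integrin chain that releases TGF-β from that complex, rose with it (3.27-fold, adjusted p = 9.00e-07). In contrast, Nrp1, a surface marker of thymus-derived Treg cells, had 1909, 1599 and 1263 in Spl/LN and 725, 743 and 649.9 in VAT and was lower in every VAT library (log2 fold change -1.17 ± 0.13, adjusted p = 3.05e-06). Gpr83, an orphan receptor of resting Treg cells, was lower in VAT by 5.01-fold (adjusted p = 8.94e-05), and Izumo1r, the folate receptor 4 gene, by 1.69-fold (adjusted p = 3.06e-05).

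The IL-2 receptor and STAT5 list had 7 of 13 genes called higher and 0 lower (median log2 fold change 0.28). Socs2, a feedback inhibitor of cytokine signaling, rose 2.22-fold (adjusted p = 2.90e-05), the kinase gene Pim1 1.87-fold (adjusted p = 1.24e-04) and Stat3 1.66-fold (adjusted p = 9.84e-05). Other cytokine receptors were mixed, with 4 of 19 called higher and 3 lower, or 1 lower without VAT replicate 2. Il1r2, the decoy receptor of IL-1, had 340.3, 276 and 502 normalized counts in Spl/LN and 3322, 3304 and 3067 in VAT, an 8.61-fold difference without overlap (adjusted p = 1.99e-09). Ifngr1, the ligand-binding chain of the interferon-γ receptor, had 4622, 5105 and 4332 against 11871, 11435 and 10766 and rose 2.42-fold (adjusted p = 4.96e-09). Il6ra, the IL-6 receptor chain, was lower in all VAT libraries (184 ± 16.0 in Spl/LN and 49.2 ± 5.04 in VAT, adjusted p = 2.04e-06).

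Inhibitory receptors were not uniform. Of 13 tested, 3 were called higher and 3 lower. Lag3 (chr6:124904361-124911705), which binds MHC class II, had 745, 761 and 728 normalized counts in Spl/LN and 3093, 2551 and 2919 in VAT. The 2 tissues were well separated (3.83-fold, log2 1.94 ± 0.16, adjusted p = 9.76e-08). Havcr2, the TIM-3 gene, had 369.6, 314 and 368 against 1403, 971 and 1009.7 (adjusted p = 1.03e-07), and Pdcd1, the PD-1 gene, rose 2.60-fold (adjusted p = 6.42e-07). Tigit, the receptor of poliovirus receptor family ligands, had 4742, 5667 and 5520.1 and 5557, 6154 and 6356, which overlapped and did not pass the test (adjusted p = 0.207). Cd160 had 37.0, 71.1 and 104 in Spl/LN and 4.48, 5.05 and 5.44 in VAT, 13.9-fold lower in the mean (adjusted p = 6.62e-05). Btla, the inhibitory receptor of HVEM, was lower by 2.56-fold (adjusted p = 3.32e-05) and Cd96, a TIGIT relative, by 2.64-fold (adjusted p = 7.88e-05).

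Among 13 costimulatory receptors and ligands, 4 were called higher and 5 lower. Tnfrsf9, the gene of 4-1BB, had 4417, 4193 and 4005 normalized counts in Spl/LN and 13987, 10752 and 7844 in VAT (adjusted p = 2.74e-06). Tnfrsf4, encoding OX40, and Tnfrsf8, encoding CD30, rose 1.80-fold (adjusted p = 3.28e-05) and 3.42-fold (adjusted p = 2.92e-06). Tnfrsf25, the gene of death receptor 3, another TNF receptor that expands Treg cells, was instead lower in each VAT library, with 1207, 1210.0 and 1279 in Spl/LN and 660.3, 539 and 665 in VAT (adjusted p = 1.05e-05). Cd226, the activating counterpart of TIGIT, was lower by 2.73-fold (adjusted p = 7.60e-04). Tnfsf8, the ligand of CD30, had 47.4, 26.5 and 23.9 in Spl/LN and 0, 6.06 and 0 in VAT (adjusted p = 6.13e-04).

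**Figure D3:**
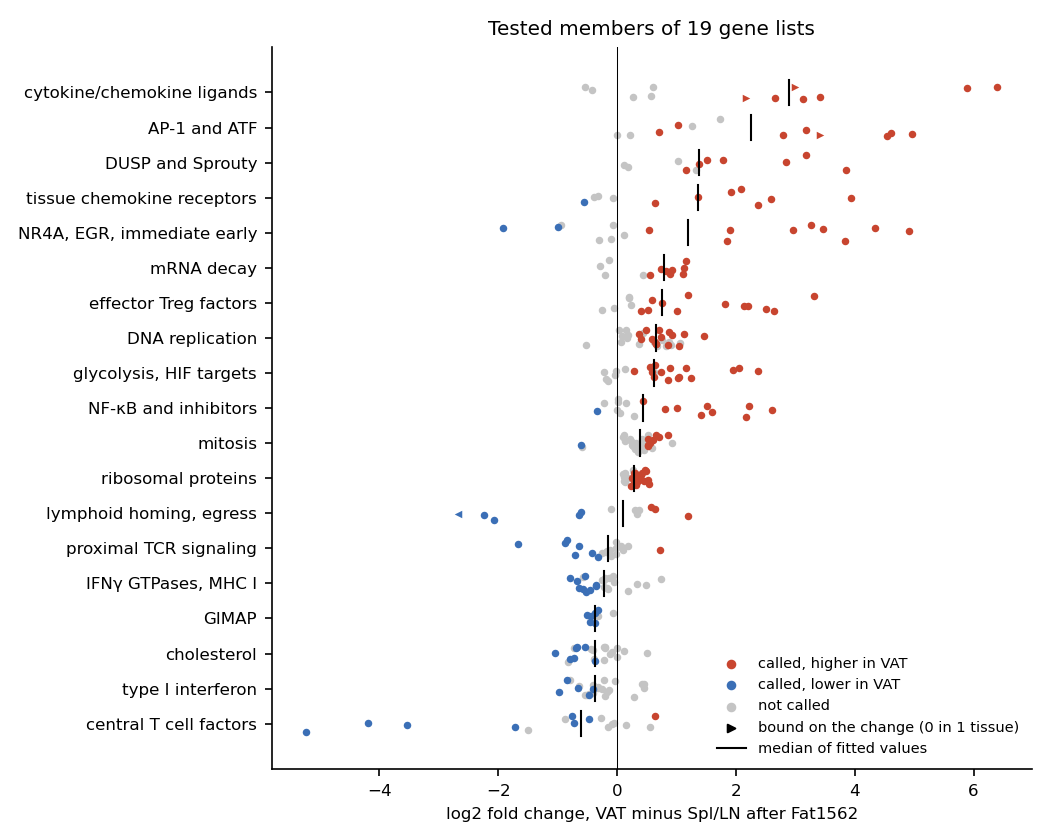
Each point is the log2 fold change of VAT over Spl/LN after Fat1562 for 1 member of a gene list, with a line at the list's median and triangles for genes given as a bound. The medians run from 2.90 for cytokine and chemokine ligands and 2.26 for AP-1 genes down to -0.60 for central T cell transcription factors. Some ligands and Atf3 passed the filter only through VAT, which in part sets the medians of their lists.

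Most tested receptors for chemokines of tissues were higher in VAT. In control mice, 7 of the 11 tested tissue chemokine receptors were called higher and 0 lower (median log2 fold change 1.85). After Fat1562, 7 were called higher and 1 lower, with a median of 1.36. Ccr8, a receptor of tissue Treg cells for CCL1 and CCL8, had 752, 998 and 1027 normalized counts in Spl/LN and 6089.5, 5836 and 4795 in VAT. The groups did not overlap (6.02-fold, adjusted p = 3.56e-10). Ccr1, a receptor of CCL3, rose 5.16-fold (adjusted p = 1.78e-07). Cx3cr1, the fractalkine receptor, had 4.74, 41.4 and 25.5 against 342, 349 and 402 (adjusted p = 2.92e-06). Ccr3, the eotaxin receptor, had 191, 253 and 314 in Spl/LN and 181, 174 and 163 in VAT (adjusted p = 0.0373), a call that was lost when any library but Spl/LN replicate 1 was left out (adjusted p = 0.0891, 0.216, 0.074, 0.0972 and 0.104), which left 0 or 1 lower call in the list. Xcr1, the receptor of lymphotactin on cross-presenting dendritic cells, had 15.2, 21.2 and 11.2 against 77.2, 54.5 and 47.1 (adjusted p = 0.0175), and its call was lost without Spl/LN replicate 1 (adjusted p = 0.0619), Spl/LN replicate 3 (adjusted p = 0.0782) or VAT replicate 1 (adjusted p = 0.0833). Cd74, the largest of the dendritic cell and MHC class II markers, was not called, with 197 to 225 CPM in Spl/LN and 169 to 215 in VAT. All markers of that list summed to 215 to 238 CPM in Spl/LN and 203 to 284 in VAT. Of 9, 5 were called higher (Xcr1, Zbtb46, H2-Aa, H2-Ab1 and H2-Eb1), Clec9a was at 0 in all 6 libraries, Flt3 and Siglech had no more than 1 count in any, and H2-Aa had 3, 0 and 0 raw counts in Spl/LN and 7, 24 and 47 in VAT. The H2-Aa call was lost without Spl/LN replicate 2 or 3 or VAT replicate 3 (adjusted p = 0.0759, 0.0832 and 0.0677), that of Zbtb46 without VAT replicate 2 (0.0871) and those of H2-Ab1 and H2-Eb1 without any library but VAT replicate 1 (0.0529 to 0.127 for H2-Ab1 and 0.0629 to 0.185 for H2-Eb1). Their part in the Xcr1 difference was not tested.

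The list of lymphoid homing and egress genes had 3 of 12 called higher and 5 lower. S1pr4, which with S1pr1 senses sphingosine 1-phosphate, had 1913, 2065 and 2072 normalized counts in Spl/LN and 1230.0, 1095 and 1567 in VAT (adjusted p = 9.67e-04). Cxcr5, the follicle homing receptor, was lower in every VAT library, with 316, 185 and 325 against 83.9, 40.4 and 51.7 (adjusted p = 4.13e-05). Itgb7, an integrin chain of gut-homing cells, had 16016, 19165 and 15743 and 11276, 10613 and 11507 (log2 fold change -0.61 ± 0.11, adjusted p = 5.26e-04), whereas its partner Itga4 rose 1.49-fold (adjusted p = 0.0048). Ccr9, the gut chemokine receptor, had 1166, 1379.8 and 669 in Spl/LN and 2745, 2488 and 2082 in VAT (adjusted p = 0.0017). Of the 38-base stretches of Ccr9, 20.7% also lie in other annotated genes, and Gm17200 overlaps its exons on the same strand. Cd69, which retains cells in tissue by removing S1PR1 from the surface, rose 1.55-fold (adjusted p = 0.00108).

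Integrins and adhesion genes gave 3 of 16 called higher and 3 lower, or 5 lower under quantile normalization. Itgav, the αV chain, had 457, 446 and 345 normalized counts in Spl/LN and 1691, 1501 and 1297 in VAT (3.60-fold, adjusted p = 9.67e-09), and Cd44, the hyaluronan receptor, rose 1.58-fold (adjusted p = 6.93e-05). Itgb1, the chain shared by many matrix receptors, was lower, with 788, 642 and 391 against 289, 203 and 267 (adjusted p = 3.32e-04), and Itgal, the LFA-1 chain, was lower by 1.64-fold (adjusted p = 3.73e-05).

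Several transcription factors of central T cells fell, and most of those of effector Treg cells rose. Of 16 central factors, 7 were called lower and 1 higher (median log2 fold change -0.60), and of 17 effector factors, 12 were called higher and 0 lower (median 0.76). Id3 (chr4:136143497-136145755), an inhibitor of E proteins that marks resting Treg cells, had 810.4, 655 and 842 normalized counts in Spl/LN and 17.9, 21.2 and 21.8 in VAT. The highest VAT library was far below the lowest Spl/LN library, a 37.5-fold difference (log2 -5.23 ± 0.19, adjusted p = 3.19e-12). Id2, its relative in effector cells, moved the opposite way, from 626, 688 and 643 to 3944, 2916 and 2148 (adjusted p = 3.06e-08). Tcf7, the gene of TCF1, was lower by 18.3-fold (adjusted p = 4.61e-07), and its partner Lef1 by 1.70-fold (adjusted p = 1.09e-04). Klf3, a repressor related to Klf2, had 382, 333 and 333 and 36.9, 15.2 and 38.1 (log2 fold change -3.53 ± 0.26, adjusted p = 2.95e-08). Klf2, which drives S1pr1, had 74.9, 84.9 and 90.1 against 22.4, 18.2 and 34.4 (adjusted p = 8.06e-04). Ets1, a regulator of T cell identity, differed less but without overlap (11414 ± 692 in Spl/LN and 8209 ± 201 in VAT, adjusted p = 9.65e-05). The single higher call, Satb1, a chromatin organizer (222 ± 20.8 and 348 ± 48.2, adjusted p = 0.0134), was lost without Spl/LN replicate 2 (adjusted p = 0.0662) and without VAT replicate 1 (adjusted p = 0.0874), which left 0.

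Among the effector factors, Pparg had 64.4, 53.1 and 53.4 normalized counts in Spl/LN and 391, 301 and 280.1 in VAT (5.67-fold, adjusted p = 2.04e-05). Every VAT library was above every Spl/LN library. Nfil3, a basic leucine zipper factor that follows IL-4 and IL-10 programs, had 252, 219 and 228 against 942, 728 and 787 (3.51-fold, adjusted p = 4.67e-08). Bhlhe40, a repressor of Il10 in helper T cells, rose 9.92-fold (adjusted p = 4.96e-08), here beside a rise of Il10 itself. Crem, which encodes factors of the cyclic AMP response element, rose 4.40-fold (adjusted p = 4.46e-10). Gata3 and Rora, factors of the type 2 and tissue programs, rose 1.51-fold (adjusted p = 0.00195) and 1.69-fold (adjusted p = 6.25e-05). Of the other KLF genes, 3 of 9 were called higher and 0 lower, Klf6 from 1035 ± 71.3 to 1834 ± 391 (adjusted p = 2.00e-04), and Klf4, at 0 in all Spl/LN libraries, was at least 9.70-fold higher.

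The IL-33 receptor and type 2 list had 3 of 9 tested genes called higher and 1 lower. Il1rl1, the ST2 gene, had 546, 675 and 488 normalized counts in Spl/LN and 2755, 1599 and 1523 in VAT (3.44-fold, adjusted p = 9.20e-07). Calca, encoding the neuropeptide CGRP, had 0, 3 and 3 raw counts in Spl/LN and 44, 27 and 36 in VAT, a ratio with a 95% counting interval of 8.63 to 54.1. Il9r, the IL-9 receptor, was lower in all VAT libraries (381 ± 18.5 in Spl/LN and 202 ± 22.2 in VAT, adjusted p = 1.38e-04).

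Genes of lipid storage were among those that rose, and no cholesterol gene was called higher. Of 18 tested genes of lipid uptake, storage and oxidation, 6 were called higher and 1 lower. Hilpda, which blocks lipolysis in lipid droplets, had 149.8, 152 and 144 normalized counts in Spl/LN and 3007, 2253 and 1595 in VAT. The tissues did not overlap (15.4-fold, adjusted p = 2.11e-07). Dgat2, which makes triglycerides, had 145, 90.2 and 112 against 954, 812 and 832 (7.46-fold, adjusted p = 1.82e-07), and Plin2, which coats lipid droplets, rose 2.90-fold (adjusted p = 7.91e-07). Rxra, which encodes the partner receptor of PPARγ, was the lower call (151 ± 18.3 in Spl/LN and 69.3 ± 12.5 in VAT, adjusted p = 0.0022). Of 22 cholesterol genes, 0 were called higher and 7 lower (median log2 fold change -0.38), and the lower calls numbered 4, 2, 3 and 2 without Spl/LN replicate 1, Spl/LN replicate 2, VAT replicate 1 and VAT replicate 2. Srebf2, the master factor of sterol synthesis, had 751, 878 and 733 in Spl/LN and 558, 465 and 605 in VAT, without overlap (log2 fold change -0.53 ± 0.13, adjusted p = 0.00803). That call was lost without Spl/LN replicate 2 (adjusted p = 0.0546) or VAT replicate 2 (adjusted p = 0.0574). Cyp51, a sterol demethylase, had 412, 592 and 448 against 272, 310.1 and 261 (adjusted p = 0.00305).

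Some components of the TCR pathway itself were lower in VAT. Of 20 proximal signaling genes, 7 were called lower, 1 was called higher and 12 did not pass (median log2 fold change -0.15). Prkcq, encoding PKCθ, which links the TCR to NF-κB, had 1712, 1541 and 1381 normalized counts in Spl/LN and 444, 449 and 559 in VAT. All VAT libraries were below all Spl/LN libraries, by 3.18-fold in the mean (log2 -1.67 ± 0.11, adjusted p = 7.92e-09). Lat, the membrane adaptor, had 3033, 3024 and 3221 against 1736, 1886 and 2030.3 (adjusted p = 5.03e-05). Nfatc1, the calcium-regulated factor, was lower by 1.80-fold (adjusted p = 3.22e-05), and so was Ptpn6, the gene of the inhibitory phosphatase SHP-1 (1.83-fold, adjusted p = 1.83e-05). The higher call was Malt1, a protease of the complex downstream of PKCθ (729 ± 99.7 in Spl/LN and 1199 ± 152 in VAT, adjusted p = 0.004). The β chain of the receptor was lower as well. Trbc2, its constant region, had 26169, 27266 and 29132 in Spl/LN and 18589.8, 20522 and 20757 in VAT (adjusted p = 8.43e-05) and Trbv2 had 13396, 14518 and 15448 and 9978, 11196 and 11064 (adjusted p = 0.00142). Trac, the constant region of the α chain, named after its values were seen, had 20795, 24158 and 22151 in Spl/LN and 23786, 24025 and 24415 in VAT and did not pass the test (log2 fold change 0.11 ± 0.08, adjusted p = 0.41). For Trbc2, 46.9% of the 38-base stretches also lie in other annotated genes, chiefly Trbc1.

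GIMAP genes encode GTPases that sustain lymphocyte survival and lie together on chromosome 6. Of 8, 6 were called lower and 0 higher (median log2 fold change -0.37), or 2, 3 and 2 lower without Spl/LN replicate 2, Spl/LN replicate 3 and VAT replicate 2. Gimap3 had 9186, 9452 and 8667 normalized counts in Spl/LN and 6796, 6274 and 6132 in VAT, without overlap (adjusted p = 7.69e-04), and Gimap1 had 3634 ± 181 and 2688 ± 149.8 (adjusted p = 0.00179), with 37.1% of its 38-base stretches also in other annotated genes. Regulators of G protein and cyclic AMP signaling divided evenly, with 4 of 16 called higher and 4 lower. Rgs2 had 41.7, 107 and 60.6 in Spl/LN and 1466, 1498 and 1418 in VAT (21.2-fold, adjusted p = 4.93e-11). Rgs16 and Rgs1, which dampen chemokine receptors, rose 4.49-fold (adjusted p = 3.06e-08) and 2.18-fold (adjusted p = 1.49e-07), and Rgs14, a relative that binds Gαi, was lower by 1.56-fold (adjusted p = 2.72e-04). Pde4d, a phosphodiesterase that removes cyclic AMP, had 37.9, 62.6 and 64.6 against 291, 283 and 288 (adjusted p = 1.20e-05), and Ptger4, a prostaglandin receptor that raises it, was lower by 2.48-fold (adjusted p = 8.71e-06).

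The BCL2 family, which sets the threshold of apoptosis, had 4 of 16 called higher and 2 lower, or 1 lower without any 1 of Spl/LN replicates 1 and 2 or the 3 VAT replicates. Bcl2l1, encoding the survival protein BCL-XL, had 1032, 1165 and 1202 normalized counts in Spl/LN and 2505, 2333 and 1711 in VAT (adjusted p = 5.29e-05). Pmaip1, encoding the pro-apoptotic protein NOXA, rose 2.39-fold (adjusted p = 1.09e-04). In the list of Notch genes and anergy ligases, 4 of 12 were called higher and 2 lower, or 1 lower without any 1 of the 6 libraries. Rbpj, the Notch effector, rose 3.84-fold (adjusted p = 3.52e-07) and the ubiquitin ligase genes Nedd4 and Cblb rose 4.90-fold (adjusted p = 1.40e-04) and 1.69-fold (adjusted p = 1.53e-04).

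After Fat1562, part of the DNA replication genes and fewer of the mitotic genes were called higher in VAT. Of 32 replication genes, 15 were called higher and 0 lower, with a median log2 fold change of 0.66, and of 30 mitotic genes, 8 were called higher, 1 was called lower and 21 did not pass, with a median of 0.38. Lig1, the DNA ligase of Okazaki fragments, had 549.7, 588 and 469 normalized counts in Spl/LN and 1679.9, 1469 and 1264 in VAT (2.75-fold, adjusted p = 3.55e-06). Tk1, thymidine kinase, had 296, 332 and 339 against 593, 649 and 531 (adjusted p = 5.21e-04), and Mcm2, of the replicative helicase, had 1116, 1148 and 967 against 1712, 2048 and 1508 (adjusted p = 0.00237). For each of these genes the tissues did not overlap. Top2a had 960.1, 939 and 889 in Spl/LN and 1146, 1436 and 1431 in VAT (adjusted p = 0.00816), Mki67, the gene of the Ki-67 antigen, had 738, 731 and 749.7 and 1027, 993 and 1163 (adjusted p = 0.00778), and Cenpa, the centromeric histone, rose 1.81-fold (adjusted p = 2.12e-04). The lower call was Cdc25b, a phosphatase that starts mitosis (2063 ± 252 and 1361 ± 218, adjusted p = 0.00237). The replication count rests on few libraries: it was 8, 6, 7 and 4 without Spl/LN replicate 2, Spl/LN replicate 3, VAT replicate 1 and VAT replicate 2, and 23 with only the 6 libraries in the fit, where the mitotic count was 13.

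In control mice, VAT was set against Spl/LN in 5 other libraries of the same fit, and 2023 genes (16.6%) were called. A test of the difference between both tissue contrasts called 502 genes (4.12%), in 227 of which (1.86%) VAT minus Spl/LN was greater after Fat1562 and in 275 (2.26%) smaller. Of the mitotic genes, 0 were called higher and 13 lower in control VAT (median log2 fold change -0.53), where 9.30% of all tested genes were called higher and 7.32% lower. The difference passed for 14 of the 30, all greater after Fat1562. Birc5, which encodes the chromosomal passenger survivin, had 483, 411 and 467 normalized counts in Spl/LN and 513, 602 and 635 in VAT after Fat1562 (adjusted p = 0.0775), and in control mice 672, 527 and 516 in Spl/LN and 351 and 295 in VAT (adjusted p = 0.0011). The 2 contrasts differed by log2 1.19 ± 0.21 (adjusted p = 0.00284). For Top2a the difference was 1.03 ± 0.19 (adjusted p = 0.00522). Of the replication genes, 1 was called higher and 4 lower in control VAT (median -0.21), and the difference passed for 6, all greater after Fat1562, Tk1 among them (1.08 ± 0.23, adjusted p = 0.0112). The control VAT group had 2 libraries, and the count of 502 was 259 and 307 without one or the other.

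**Figure D4:**
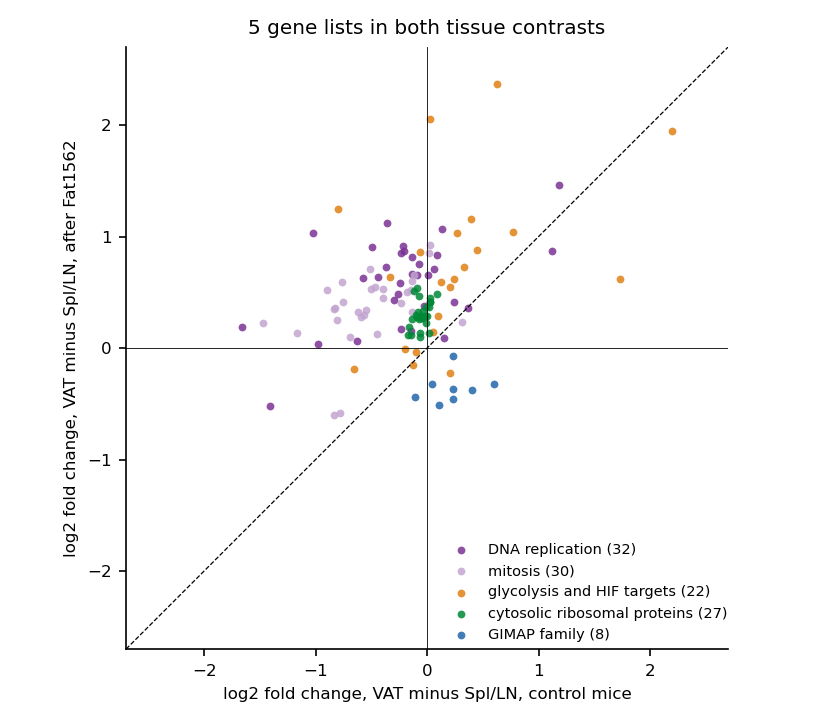
For members of 5 gene lists, the log2 fold change of VAT over Spl/LN in control mice (x axis) is plotted against that after Fat1562 (y axis), with a dashed line where both are equal. Most replication and mitotic genes lie above the line, with medians of 0.66 and 0.38 after Fat1562 and -0.21 and -0.53 in control mice, and the GIMAP genes lie below it.

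Glycolytic genes and cytosolic ribosomal proteins were raised too. Of 22 genes of glycolysis and HIF targets, 15 were called higher and 0 lower (median log2 fold change 0.63), against 5 higher in control mice (median 0.16). The difference of contrasts passed for only 4 of the 22, all greater after Fat1562. Slc16a3, the lactate exporter MCT4, had 235, 223 and 225 normalized counts in Spl/LN and 1528, 1186 and 808 in VAT (5.15-fold, adjusted p = 7.71e-08). In control mice it had 184, 145 and 155 and 286 and 212, and the contrasts differed by log2 1.73 ± 0.29 (adjusted p = 0.00212). Tpi1, triose phosphate isomerase, had 1267, 1400.0 and 1309.6 against 3130.4, 3309.9 and 2415 (adjusted p = 1.42e-06), and it also differed between the contrasts (0.77 ± 0.18, adjusted p = 0.0196). Aldoa, Pkm and Ldha, enzymes of the same pathway, rose 2.06-fold (adjusted p = 2.72e-06), 1.84-fold (adjusted p = 3.99e-07) and 1.66-fold (adjusted p = 5.91e-06), and Hif1a, the factor that drives them at low oxygen, rose 2.29-fold (adjusted p = 8.16e-08). For Pkm, 30.9% of the 38-base stretches also lie in other annotated genes. Of 25 genes of oxidative phosphorylation, 3 were called higher and 0 lower (median 0.11), or 1 higher under quantile normalization.

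Of 27 cytosolic ribosomal protein genes, 19 were called higher and 0 lower, with a median log2 fold change of 0.29, and 0 were called in either direction in control mice (median -0.06). The difference of contrasts passed for only 4 of the 27, all greater after Fat1562. The changes were small. Rpsa, of the small subunit, had 5203, 5109 and 5184 normalized counts in Spl/LN and 6993, 7660.3 and 7471 in VAT (log2 fold change 0.51 ± 0.07, adjusted p = 2.66e-05), and the difference from the control contrast was 0.63 ± 0.10 (adjusted p = 0.0014). Rplp0, of the large subunit, rose from 8686 ± 262 to 11542 ± 637 (adjusted p = 2.37e-04). Of the 38-base stretches of Rpsa and Rplp0, 30.1% and 39.4% also lie in other annotated genes. The count depended on the scaling, with 9 called under quantile normalization, and on single libraries, with 11 without Spl/LN replicate 2 and 12 without VAT replicate 2.

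A minority of interferon-response genes was lower in VAT after Fat1562. Of 24 type I interferon genes, 5 were called lower and 0 higher (median log2 fold change -0.36), where the count of lower calls was 3 without Spl/LN replicate 2, VAT replicate 1 or VAT replicate 3 and 8 without VAT replicate 2. Irf9 and Stat2, partners in the factor ISGF3, had 1600.3 ± 68.0 and 751 ± 12.4 normalized counts in Spl/LN and 1149.5 ± 59.2 and 477 ± 71.0 in VAT (adjusted p = 0.00256 and 0.00701). Of 23 genes of the interferon-γ GTPases and MHC class I, 9 were called lower and 0 higher (median -0.22), or 5 lower without Spl/LN replicate 2. In control VAT, 1 of the type I genes was called lower and 6 higher (median 0.05). Of the interferon-γ and MHC class I list, 7 were called lower there and 4 higher (median -0.24). The difference of contrasts passed as greater for 1 gene of that list and as smaller for 3. After Fat1562, Irf1, the factor at the head of that program, had 2173, 2594 and 2430.2 in Spl/LN and 1659, 1594 and 1387 in VAT, with no overlap (adjusted p = 4.24e-04). Gbp4, a guanylate-binding protein, and Psmb10, an immunoproteasome subunit, were lower by 1.46-fold (adjusted p = 5.44e-04) and 1.49-fold (adjusted p = 0.00344). H2-K1, the classical MHC class I gene, did not pass the test (46391 ± 3255 in Spl/LN and 41082 ± 4421 in VAT, adjusted p = 0.148), whereas in control mice it was higher in VAT (38296, 43949 and 41478 in Spl/LN and 60840.4 and 54416 in VAT, adjusted p = 6.59e-04), a difference of contrasts of -0.66 ± 0.12 (adjusted p = 0.00354).

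For 924 genes, both contrasts were called in the same direction, which is 46.3% of the calls after Fat1562 and 45.7% of those in control mice, and 43 were called in opposite directions. No library is shared between these contrasts. Lag3 was one of the 43. Against the VAT excess given above, its control libraries held 197, 375 and 317 normalized counts in Spl/LN and 102 and 133 in VAT (log2 fold change -1.34 ± 0.22, adjusted p = 2.13e-04), and the contrasts differed by 3.28 ± 0.27 (adjusted p = 3.19e-06). Lrrc32 did the same, with 546, 801 and 602 in control Spl/LN and 255 and 293 in control VAT (adjusted p = 4.00e-05; difference 3.07 ± 0.23, adjusted p = 1.33e-06). Egr1 crossed in the other direction. It was lower in VAT after Fat1562, and control libraries held 344, 492 and 534 in Spl/LN and 1675 and 2429.6 in VAT (adjusted p = 2.74e-07; difference -3.16 ± 0.27, adjusted p = 4.43e-06). Tnfrsf25 and Nlrc5, the MHC class I transactivator, crossed likewise. Control libraries held 1089, 1521 and 1268 normalized counts of Tnfrsf25 in Spl/LN and 1851 and 1744 in VAT (difference -1.46 ± 0.17, adjusted p = 1.04e-04), and for Nlrc5 they held 1737, 2010.4 and 1809 in Spl/LN and 3167 and 3201 in VAT (difference -1.13 ± 0.13, adjusted p = 5.80e-05). After Fat1562, Nlrc5 had 1871, 1942 and 1705 in Spl/LN and 1445, 1427 and 1459 in VAT (adjusted p = 0.00857), and without Spl/LN replicate 2 it did not pass (adjusted p = 0.0514).

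**Figure D5:**
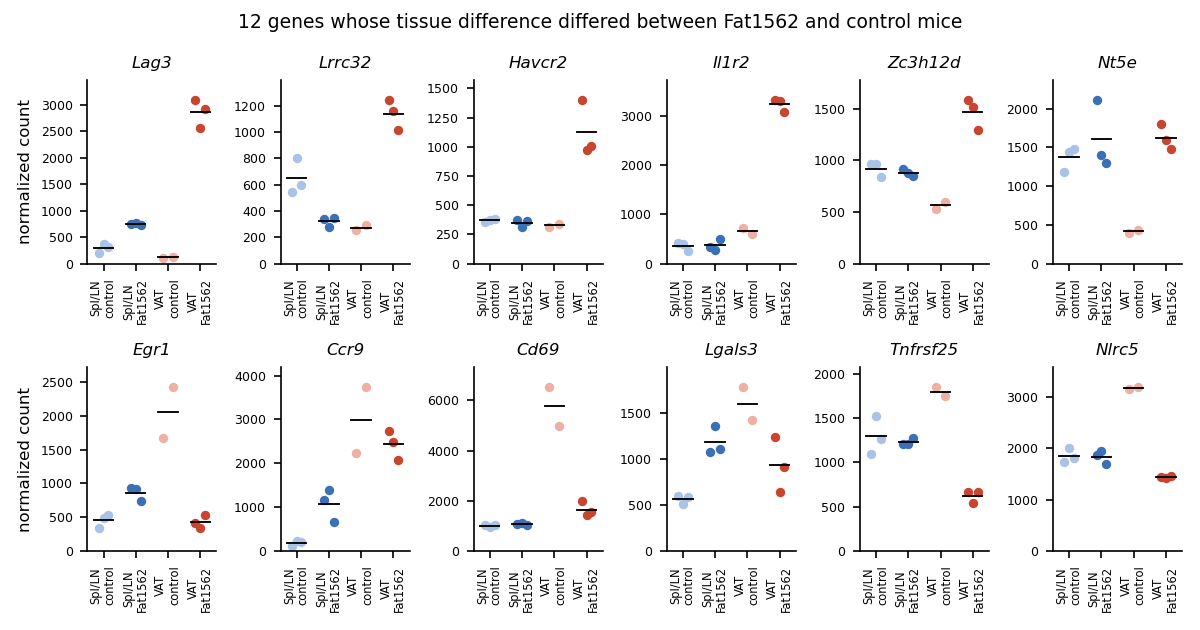
Normalized counts (linear axes from 0, 1 per gene) of 12 genes in all 11 libraries: Spl/LN and VAT of control mice (3 and 2) and of mice given Fat1562 (3 and 3), with bars at the mean of each group. Lag3 and Lrrc32 are higher in VAT after Fat1562 and lower in VAT of control mice, and Egr1, Tnfrsf25 and Nlrc5 show the reverse.

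Other genes kept their direction with a smaller VAT excess after Fat1562. Zfp36 had 5980.2 and 5614 normalized counts in control VAT, above its VAT values after Fat1562 (difference of contrasts log2 -1.76 ± 0.19, adjusted p = 3.29e-05). Btg2 had 5583 and 4729 there (difference -1.89 ± 0.18, adjusted p = 1.21e-05). Cd69 had 1014, 958 and 1026 in control Spl/LN and 6533 and 4992 in control VAT (difference -1.90 ± 0.18, adjusted p = 9.16e-06). Plin2, Pparg and Il1rl1 showed differences of -2.20 ± 0.23 (adjusted p = 2.22e-05), -2.45 ± 0.53 (adjusted p = 0.0116) and -1.26 ± 0.26 (adjusted p = 0.0078). For Areg the difference was -1.40 ± 0.27 (adjusted p = 0.00539), whereas for Dusp1 and Fos it did not pass (adjusted p = 0.374 and 0.29). 

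Outside these lists, the rule for large changes named several genes. Kcna4, a voltage-gated potassium channel, had 19.0, 10.6 and 16.0 normalized counts in Spl/LN and 466, 243 and 296 in VAT (21.7-fold, adjusted p = 1.86e-07), and Jcad, first described at endothelial junctions, had 82.5, 62.6 and 60.6 and 1706, 1036 and 1052 (18.4-fold, adjusted p = 1.61e-09). Endothelial markers summed to 96.0 to 112 CPM in Spl/LN and 81.1 to 109 in VAT. Nearly all of this was Pecam1, at 93.0 to 109 CPM in Spl/LN and 75.9 to 107 in VAT. The part of these markers in the Jcad difference was not tested. Gm37347 (chr1:40088511-40091581), which GENCODE gives the provisional type TEC and places within the span of Il1r2 on the same strand, rose 34.1-fold (adjusted p = 2.00e-08), and Gm8818, a processed pseudogene of which 35.8% of the 38-base stretches lie in other genes, rose 21.7-fold (adjusted p = 1.00e-09). The lncRNA entries Gm42418 and Gm26917 rose from 52608 ± 4844 to 64148 ± 3184 (adjusted p = 0.00583) and from 17312 ± 1619 to 26931 ± 924 (adjusted p = 0.0207). After quantile normalization Gm42418 did not pass (adjusted p = 0.611). Together they held 1.28% to 1.40% of all counts in Spl/LN and 1.64% to 1.67% in VAT. Of the Gm42418 stretches, 95.7% lie in other annotated genes. Gm26917 did not pass with DESeq2 (adjusted p = 0.0504), or without Spl/LN replicate 1 (adjusted p = 0.0518), Spl/LN replicate 3 (0.0898), VAT replicate 2 (0.0588) or VAT replicate 3 (0.0551).

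Among genes with a mean of at least 10 in both tissues, the largest falls by fold beside Id3, Tcf7 and Klf3 were in genes of varied function. Prag1, a pseudokinase, had 329, 229 and 290.3 normalized counts in Spl/LN and 6.72, 8.08 and 29.9 in VAT (18.3-fold lower, adjusted p = 3.76e-07). Atp6v0d2, a subunit of the vacuolar proton pump, had 241, 154 and 188 and 11.2, 21.2 and 16.3 (11.8-fold lower, adjusted p = 5.61e-07). St6gal1, a sialyltransferase, and Cd22, a receptor for the sialic acid linkage it makes, were lower by 10.9-fold (adjusted p = 5.92e-08) and 10.8-fold (adjusted p = 1.28e-05). Cd22 is best known from B cells. B and plasma cell markers summed to 2354 to 2537 CPM in Spl/LN and 1178 to 1635 in VAT, nearly all of it Ighm. Ighm had 12454 ± 563 and 7503 ± 1091 normalized counts, without overlap (adjusted p = 0.123, or 1.13e-05 with only the 6 libraries in the fit and 4.14e-21 with no filter on low counts). Cd79b was called lower. Igkc went the other way, with 19.3, 49.7 and 31.4 CPM in Spl/LN and 34.3, 61.5 and 45.2 in VAT, and was not called. Ms4a1 was at 0 in Spl/LN and had 1, 3 and 4 raw counts in VAT. The part of these markers in the Cd22 difference was not tested. P2rx7, the ATP-gated channel, had 603, 448 and 297 against 73.9, 56.6 and 51.7 (adjusted p = 8.46e-07). Rasgrp2, an activator of Rap1, was lower by 8.87-fold (adjusted p = 2.76e-08), Ehd3, of endosomal recycling, by 8.33-fold (adjusted p = 2.46e-07), Gjb2, a connexin gene, by 7.70-fold (adjusted p = 0.00195) and AC140209.1 by 10.6-fold (adjusted p = 1.88e-07).

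In normalized counts, the largest falls beside Trbc2, Trbv2, Itgb7, Ets1 and Gimap3 were in Shisa5, Laptm5 and Cnn2. Shisa5, a membrane protein of the endoplasmic reticulum, had 21069, 22228 and 21962 in Spl/LN and 15306, 15845 and 15269 in VAT (adjusted p = 6.30e-05). Laptm5, a lysosomal protein that lowers surface TCR, had 17077, 16841 and 16232 against 12823, 12097 and 12913 (adjusted p = 1.47e-04), and Cnn2, an actin-binding calponin, fell from 10400.0 ± 677 to 7453 ± 661 (adjusted p = 2.64e-04). All 3 were below the Spl/LN range in every VAT library, by less than 1.5-fold in the mean. In control mice, none of the 3 passed the test (adjusted p = 0.115, 0.526 and 0.754), and the difference of contrasts passed for Laptm5 (-0.48 ± 0.09, adjusted p = 0.0059) and Cnn2 (-0.43 ± 0.12, adjusted p = 0.0461).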

How the data were processed

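RNA of 1000 sorted vTreg53 Treg cells per library was sequenced with Smart-seq2 as paired 38-base reads after 18 cycles of amplification, without molecular identifiers, so counting intervals cover counting error only. The deposited table holds counts, that is, reads per gene, which the authors left unnormalized. The submitters' processing notes name STAR 2.5.4, featureCounts and mm10, and the study's methods name Cuffquant. The annotation and the use of strand are not given in the sources used here.

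Groups came from the labels. Genes with a mean above 10 in either Fat1562 group, all libraries being scaled to 1 total, were fitted with edgeR 4.0.16 (R 4.3.3; TMM scaling) over all 11 libraries as 4 groups, which share 1 estimate of the spread (common coefficient of biological variation 18.1%). Tissue contrasts after Fat1562 and in control mice, and their difference, were tested by quasi-likelihood with Benjamini-Hochberg adjustment. A gene at 0 in a whole group was set against a floor of 3 counts per library, and a gene at 1 to 3 counts was given a 95% counting interval. Positions are from GENCODE vM21 (GRCm38, which mm10 is), promoter windows from RefSeq (GRCm38.p6). The share of 38-base stretches found in other annotated genes was counted for every gene named.

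The genes named were the 12 largest changes by fold in each direction among called genes without overlap and with means of at least 10, the 8 largest rises and falls in normalized count, 6 genes of the study and at most 8 members of a list. The comparison, its gene lists and these rules were chosen with earlier results of these data known. Alternatives covered filters, scaling, limma 3.58.1 on quantile-normalized values, DESeq2 1.42.0, fewer libraries, a replicate block and each library left out. The fit was tested on simulated data. Replicates differed beyond sampling noise in every pair (chi-square over degrees of freedom 5.53 to 11.7), so none was merged. Values of a few list members are not reported here.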

Additional observations from a re-analysis of the deposited data

Results flagged for a closer look

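A difference between conditions in the VAT against Spl/LN contrast, tested directly as the contrast after Fat1562 minus that in control mice (edgeR's quasi-likelihood test, adjusted over 12178 genes), passed for 502 genes, among them the genes named here. Values below are this difference on the log2 scale. Positive values mean that VAT minus Spl/LN was greater after Fat1562, and no explanation is weighed.

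Among surface receptors and their partners, it was positive for Lag3 (3.28), Lrrc32 (3.07), Il1r2 (2.21), Havcr2 (1.87), Itgb8 (1.81), Nt5e (1.74), Slamf6 (1.44), Izumo1r (1.03), Ccr8 (0.74) and Tigit (0.54). For Tigit and Nt5e, the contrast after Fat1562 alone had not passed. It was negative for Ccr9 (-2.82), Cd226 (-2.22), Cd69 (-1.90), Ccr3 (-1.47), Tnfrsf25 (-1.46), Il1rl1 (-1.26), Il9r (-1.06), Ms4a4b (-1.04), Ifngr1 (-0.94), Itga4 (-0.73) and Itgav (-0.69). Receptors thus stood on both sides, with Lag3 and Ccr9 at the ends among those named.

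Among immediate early, NF-κB and mRNA decay genes, most differences were negative. They were -3.16 for Egr1, -2.11 for Nr4a2, -1.89 for Btg2, -1.79 for Fosl2, -1.76 for Zfp36, -1.67 for Gem, -1.54 for Nr4a1, -1.46 for Dusp10, -1.18 for Sik1, -1.11 for Nfkbid, -1.08 for Crem, -0.94 for Klf6, -0.82 for Gadd45b, -0.74 for Junb and -0.67 for Tnfaip3. Positive values in these groups were 1.44 for Zc3h12d and 0.81 for Myc.

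Secreted and effector products gave -2.93 for Cxcl10, -2.37 for Il10, -1.40 for Areg, -0.55 for Fgl2 and 2.10 for Prf1. Factors of the tissue program and of lipid and sterol metabolism gave -2.45 for Pparg, -2.20 for Plin2, -1.06 for Rora, -1.01 for Srebf2 and -0.67 for Gata3. For Pparg, Plin2, Rora and Gata3, the excess of VAT over Spl/LN was smaller after Fat1562 than in control mice. A smaller excess can come from either tissue, and the study reports that Pparg rose in Spl/LN Treg cells with Fat1562. Srebf2 was called lower in VAT after Fat1562 and higher in control VAT. Klf2, a factor of recirculating cells, gave -1.79.

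Cell cycle, glycolytic and ribosomal genes gave positive values, namely 1.19 for Birc5, 1.08 for Tk1, 1.03 for Top2a, 0.83 for Cenpa, 1.73 for Slc16a3, 0.77 for Tpi1, 0.63 for Rpsa and 0.38 for Rplp0, while the cell cycle inhibitor Cdkn1a gave -1.59. Signaling and survival genes gave -1.60 for Tespa1, -1.30 for Rasgrp2, -1.13 for Pmaip1, -0.84 for Rgs14, -0.61 for Gimap3, -0.61 for Prkcq, -0.48 for Laptm5 and -0.43 for Cnn2, against 0.67 for Cblb and 0.61 for Rgs1. In the MHC class I program, the values were -1.13 for Nlrc5 and -0.66 for H2-K1.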

How the results depend on the processing

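The count of 1997 genes called after Fat1562 lay between 1887 and 2683 under the alternatives of filter, scaling, tool, libraries in the fit and replicate block, other than the demand for a 2-fold change, which left 815 (539 higher and 276 lower). Quantile normalization with limma called 2155 genes and moved the share of higher calls from 55.5% to 47.1%. Leaving out 1 library gave 1338 to 1770 genes. In control mice the count of 2023 was 1227 to 2032 with 1 library left out, the lowest without VAT replicate 1. The count of 502 differences was 788 with DESeq2 and 259 to 598 with 1 library left out; it was 259 and 307 without VAT replicates 1 and 2 of the control mice, 292 without VAT replicate 2 and 328 without Spl/LN replicate 2 after Fat1562. The cause of these shifts was not tested, apart from the fewer samples in each.

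Whether the replicate numbers pair the libraries is not known. Deviations of same-numbered Spl/LN and VAT libraries correlated at 0.08, 0.02 and 0.06 over 8961 genes. Those of differently numbered libraries correlated at -0.11 to 0.05. With 3 libraries in a group, such values cannot decide whether same-numbered libraries share a mouse. With a replicate block, 1924 genes were called after Fat1562 (2683 with only the 6 libraries in the fit), 1763 in control mice and 439 differences. Spl/LN replicate 3 and VAT replicate 2 correlated at 0.05, so not every library correlated best with its own number. No scaling moved the median of all genes by more than 0.1 on the log2 scale. At 4989677 to 6570057 counts a library, genes near the limit of 10 rest on few reads, and a p above the threshold there does not show that the tissues are alike.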

Other observations

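Genes outside the fixed lists and the rule for named genes, chosen after their values were seen, also separated the tissues after Fat1562. Sik1, a kinase induced by cyclic AMP that restrains CREB coactivators, had 69.2, 61.6 and 61.4 normalized counts in Spl/LN and 773, 714 and 635 in VAT (log2 fold change 3.46 ± 0.15, adjusted p = 3.06e-11 by edgeR's quasi-likelihood test). Gem, a small GTPase of the calcium response, went from 239, 243 and 248 to 2871, 2861 and 1820.0 (10.3-fold, adjusted p = 7.96e-09). Cdkn1a, the gene of the cell cycle inhibitor p21, had 57.8, 79.6 and 54.2 in Spl/LN and 797, 833 and 604 in VAT (adjusted p = 2.19e-09), in the libraries where DNA replication genes were also higher in VAT. Il1rn, the IL-1 receptor antagonist, rose from 97.6, 144 and 99.7 to 2467, 1820.1 and 799 (adjusted p = 4.77e-06), and its VAT libraries were spread more widely than those of Il1r2, the decoy receptor of the same cytokine. Mt1, a metallothionein that binds zinc and copper, rose 5.36-fold (adjusted p = 2.07e-06), and Vdr, the vitamin D receptor, rose 6.54-fold (adjusted p = 3.56e-05). Neither library group overlapped the other for any of these 6 genes.

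Among the genes lower in VAT, Ms4a4b, a membrane protein that raises GITR signaling, had 1771, 1845 and 1975 normalized counts in Spl/LN and 349, 250.5 and 176 in VAT (7.25-fold lower, adjusted p = 4.75e-09). Slamf6, a receptor of less differentiated T cells, had 1224, 965 and 1209 against 303, 398 and 490.3 (adjusted p = 6.28e-07). Tespa1, which takes part in TCR-driven calcium release, had 904, 668 and 778 and 165, 227 and 226 (adjusted p = 4.96e-08), whereas control libraries held 684, 785 and 853 in Spl/LN and 650.0 and 583 in VAT (adjusted p = 0.184). Of the 38-base stretches of Tespa1, 20.7% also lie in other annotated genes. Txnip, a brake on glucose uptake, was lower by 2.21-fold (adjusted p = 1.08e-04), in the same libraries in which 15 of 22 glycolysis genes were called higher.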
